A study of Mus musculus with 18 samples.

Results

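The acetylated sites described here are H3K27ac peaks on chromosomes 1 to 19 that shared at least 1 bp with an MBD3 peak from the same mouse. They numbered 31387 of 66055 H3K27ac peaks in animal 5, 33244 of 67877 in animal 7 and 21662 of 57846 in animal 9. Within them, the summit of each MBD3 peak, the base at which the peak caller placed its highest signal, was located relative to the start, centre, end and summit of the H3K27ac peak. Sites were grouped by H3K27ac width into 5 classes: under 500 bp, 500 to 1000 bp, 1000 to 2000 bp, 2000 to 5000 bp and at least 5000 bp. Each class contains its lower bound.

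Chromatin immunoprecipitation sequencing was done on frozen cerebral cortex of wild-type female C57BL/6J mice aged 14 weeks, with animals 5, 7 and 9 as the replicates. The cortices were bought frozen, and each library came from 1 animal. No treatment or genotype was compared, so every result concerns the position of one protein relative to another in the same tissue, a mixture of neurons, glia and other cells. H3K4me1 and PolII_S5P lists of the same animals served for comparison.

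Acetylation of lysine 27 of histone H3 marks active promoters and enhancers. The acetylated nucleosomes flank a nucleosome-poor stretch where transcription factors and RNA polymerase bind, so an acetylated interval has an inner structure. MBD3 is a subunit of NuRD, a complex that joins a chromatin remodelling ATPase to the histone deacetylases HDAC1 and HDAC2 and is found at active promoters and enhancers as well as at silent chromatin. PolII_S5P is RNA polymerase II with phosphorylated serine 5 of its repeat tail, found near transcription start sites. H3K4me1 is a histone mark found mainly at enhancers.

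MBD3 peaks were on nearly all of the broad acetylated sites and on a minority of the narrow ones. In sites under 500 bp, an MBD3 peak was found at 23.3%, 25.9% and 18.8% of sites in animals 5, 7 and 9. The share was 71.0%, 73.5% and 60.9% in sites of 1000 to 2000 bp. It reached 98.6%, 98.0% and 95.7% in sites of at least 5000 bp, so that the ranges of the animals did not overlap between these classes. Animal 9, whose MBD3 list was the shortest with 38821 peaks against 56738 and 61187, was lowest in every class. A longer interval offers more bases to overlap, so the summits were also counted per length. By that count, MBD3 summits inside the sites were most frequent in the 1000 to 2000 bp class, at 0.457 ± 0.0575 per kb of H3K27ac (SD, n = 3). The density was 0.224 ± 0.0584 per kb in sites under 500 bp and 0.367 ± 0.0286 per kb in sites of at least 5000 bp. The denominator of this density was the length of all H3K27ac peaks of the class, occupied or not.

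**Figure D1:**
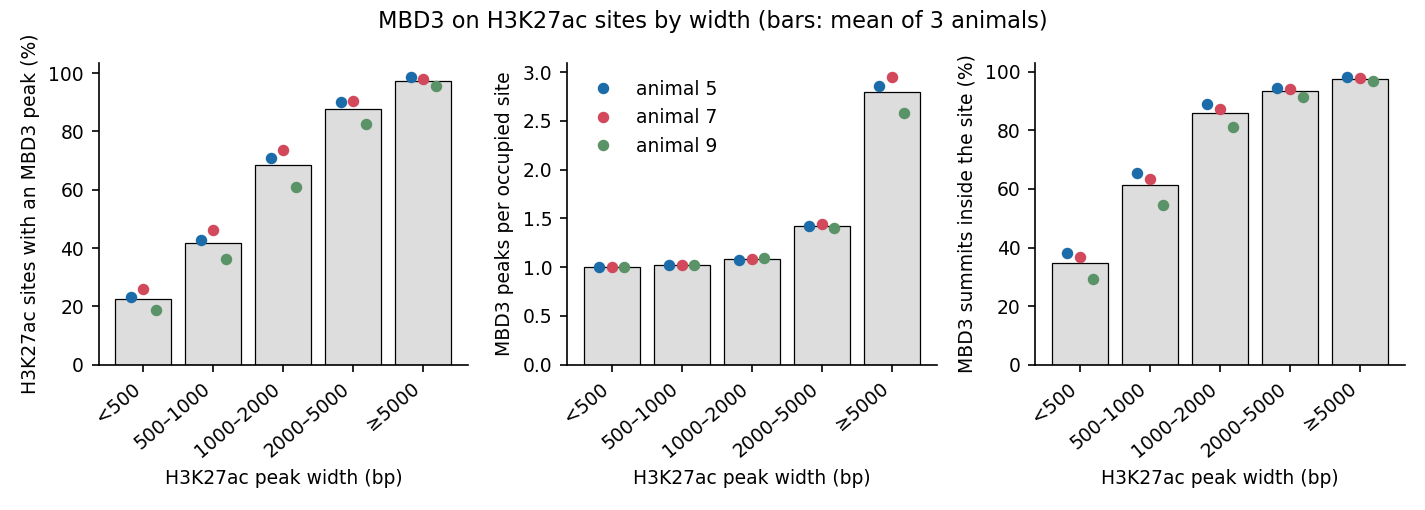
Share of H3K27ac peaks with an MBD3 peak (left, percent), MBD3 peaks per occupied site (middle) and share of overlapping MBD3 peaks whose summit lay inside the site (right, percent), by H3K27ac width class on the horizontal axis in bp. Bars are means of 3 animals and points are the animals. All 3 quantities were highest in sites of at least 5000 bp, and the animals differed by less than the step from the narrowest to the widest class.

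The number of MBD3 peaks on one occupied site also grew with its width. Sites under 500 bp held almost always a single MBD3 peak, with 1.00 ± 0.000489 per occupied site (SD, n = 3). In sites of at least 5000 bp the mean was 2.86 in animal 5, 2.95 in animal 7 and 2.58 in animal 9. The difference between these classes was 1.79 peaks per site. All 3 values of the widest class lay above those of the narrowest (two-sided exact permutation test, p = 0.1). That p is the smallest that 3 values against 3 can give. The test did not pair the classes by animal, although both came from the same 3 animals. MBD3 peaks were at least 215 bp wide, so a site under 500 bp has little room for more than 1. The outcome was therefore largely set by site width, and no conclusion about MBD3 is drawn from this test. Of the occupied sites of 2000 to 5000 bp, 29.7% ± 0.872 held exactly 2 MBD3 peaks and 6.02% ± 0.468 held 3 or more. Of those of at least 5000 bp, 52.7% ± 5.71 held 3 or more, and the fullest single H3K27ac peak held 13.

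Overlap did not always bring the MBD3 summit into the acetylated interval. Over all widths, 77.7%, 74.9% and 67.6% of overlapping pairs in animals 5, 7 and 9 had the MBD3 summit inside the H3K27ac peak. In sites under 500 bp this held for only 38.1%, 36.8% and 29.3%, so most MBD3 peaks at the narrowest sites had their summit beside the acetylated interval. The shares were 89.0%, 87.3% and 81.2% in sites of 1000 to 2000 bp and 97.0% to 98.1% in sites of at least 5000 bp. Where the summit lay outside, it was a median of 133 ± 4.16 bp beyond the nearer edge (SD, n = 3). The median width of MBD3 peaks with an inside summit was 358 ± 18.8 bp in sites under 500 bp, close to the median site width of 381 ± 6.53 bp, and the part of peak width in these shares was not tested.

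Some MBD3 peaks spanned 2 or more neighbouring H3K27ac peaks. They were 4.71%, 6.06% and 6.76% of the overlapping MBD3 peaks in animals 5, 7 and 9, and the gap they spanned had a median length of 315 ± 10.5 bp (SD, n = 3). The MBD3 summit lay in that gap in 67.9%, 70.3% and 81.5% of them, and in all animals this was well above the share of the MBD3 peak's length taken by gaps, 40.4% ± 5.67. A peak that overlaps both neighbours has the gap in its interior by construction, and the plain midpoint of the same peaks lay in the gap in 71.5% ± 6.39. The summit was found in the gap about as often as the midpoint, and the peaks with a gap were broader, with a median of 885 ± 159 bp against 539 ± 69.6 bp for the other MBD3 peaks. The gaps were analysed after the positions had been seen.

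The positions that follow use the pairs with the MBD3 summit inside the site, 28494 in animal 5, 28992 in animal 7 and 16739 in animal 9. They were set against even placement, in which each base of the H3K27ac peak is equally likely, and the values of even placement were calculated exactly. Differences from even placement were tested with a two-sided exact sign-flip permutation test over the 3 animals, whose smallest p is 0.25. No test in this design can pass 0.05, so the size of a difference, its spread and its direction in each animal carry the description. In all, 165 sign-flip tests and 1 permutation test of class means were made. Of the sign-flip tests, 143 gave p = 0.25 and 22 gave a larger p, and the lowest Benjamini-Hochberg adjusted p over all 166 permutation tests was 0.288.

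MBD3 summits were concentrated in the middle of sites of 1000 to 5000 bp and were close to even placement in narrower and wider sites. Each site was divided into 3 segments of equal length. The middle segment of sites of 1000 to 2000 bp held 53.4%, 53.3% and 52.0% of the MBD3 summits in animals 5, 7 and 9, against 33.3% under even placement. The excess was 19.5 ± 0.788 percentage points (SD, n = 3; exact sign-flip p = 0.25, higher in 3 of 3 animals). For sites of 2000 to 5000 bp the middle segment held 44.7%, 43.7% and 45.9%, an excess of 11.4 ± 1.11 points. The preference shrank to 1.31 ± 1.11 points in sites of at least 5000 bp. It was 4.42 ± 1.35 points in sites of 500 to 1000 bp.

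A division into 10 bins of equal length showed the same shape at finer scale. The middle pair of bins in sites of 1000 to 2000 bp held 34.1% ± 0.372 of the MBD3 summits and the outermost pair 8.82% ± 0.339 (SD, n = 3), where 10% per bin is even. For sites of 2000 to 5000 bp the same pairs held 27.2% ± 0.738 and 8.67% ± 0.538. The profile of sites of at least 5000 bp was flat inside, with 20.7% ± 0.743 in the middle pair, and fell only at the ends, with 12.8% ± 1.23 in the outermost pair. By the means over animals, the outermost bins alone were below 10% in the widest sites.

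**Figure D2:**
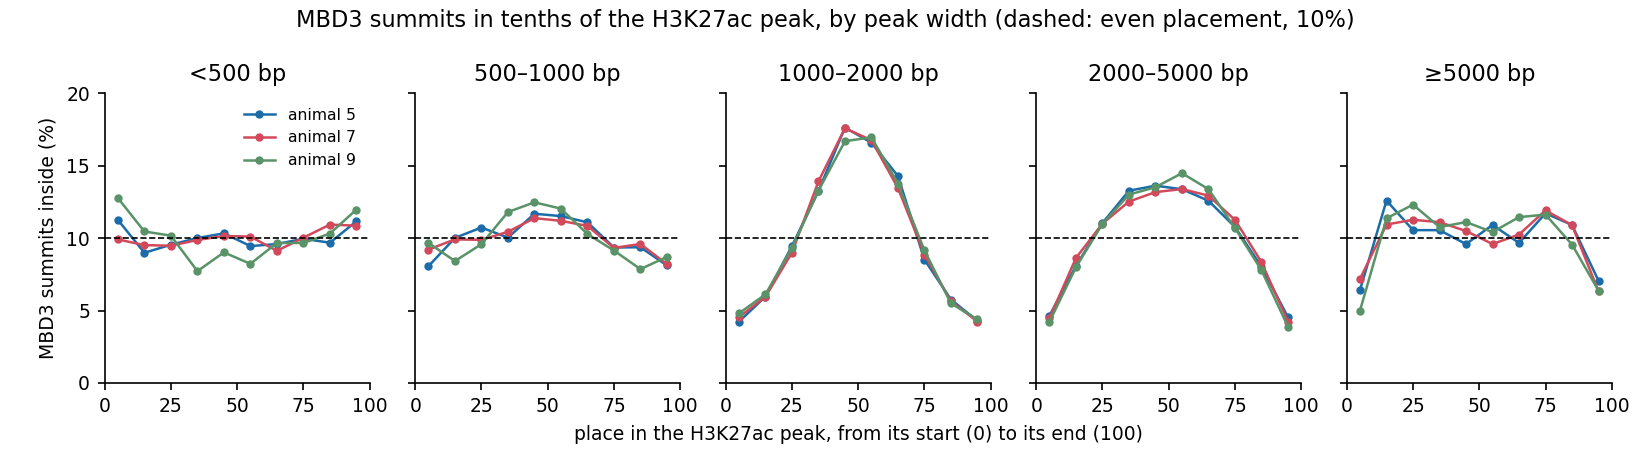
Percent of inside MBD3 summits in each of 10 equal bins of the H3K27ac peak, from its genomic start (0) to its end (100), with 1 panel per width class and 1 line per animal. The dashed line is even placement at 10%. The 3 lines rise to a central maximum in sites of 1000 to 2000 bp and run near the dashed line in sites under 500 bp.

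The same was seen in a measure that uses every position, the distance from the site's centre, scaled to 0 at the centre and 1 at either edge, with 0.5 for even placement. Its mean in sites of 1000 to 2000 bp was 0.361 in animals 5 and 7 and 0.367 in animal 9. Over all widths it differed from even placement by -0.0824 ± 0.00256 (SD, n = 3; exact sign-flip p = 0.25, lower in 3 of 3 animals). The direction over all widths depended on the summits outside the sites. When these were counted at the nearest edge, the difference was 0.0720 ± 0.0296, away from the centre. The same treatment gave -0.0467 ± 0.0293 in sites of 1000 to 2000 bp, with a middle segment excess of 12.1 ± 2.83 points, and -0.0574 ± 0.00423 in sites of 2000 to 5000 bp.

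Sites under 500 bp showed no stable preference. Their mean distance from the centre was 0.508, 0.506 and 0.540 in animals 5, 7 and 9, and the excess over even placement, 0.0182 ± 0.0188 (SD, n = 3), was about the size of its spread. Animal 9 lay farthest from 0.5. The direction turned to the centre, at -0.0201 relative to even placement, when only MBD3 peaks covered to at least 0.5 of their length were kept, and to -0.00779 when the midpoint of the MBD3 peak replaced its summit.

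Left and right along the chromosome carry no meaning without the strand, and the balance between them serves as a scale for small shifts. The mean place of MBD3 summits, from 0 at the start to 1 at the end, differed from 0.5 by -0.00284 ± 0.000951 over all widths (SD, n = 3). That shift was small beside the centring of -0.0824, and the first and the last of the 3 segments held 28.3% ± 0.0918 and 27.5% ± 0.352 of the summits.

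Measured in bp, MBD3 summits were depleted at the edges of the sites. For sites of at least 1000 bp, the number of MBD3 summits 0 to 50 bp inside an edge was 0.351, 0.395 and 0.462 times that of even placement in animals 5, 7 and 9. It rose to 0.855 ± 0.00351 times at 300 to 400 bp and passed even placement at 400 to 500 bp, with 1.13 ± 0.00867 (SD, n = 3). The highest ratio, 1.42 ± 0.00564, was found 700 to 1000 bp from the edge. Fewer summits near the edge were not particular to MBD3. H3K4me1 had 0.426 ± 0.0380 times even placement at 0 to 50 bp, but 1.13 ± 0.0241 at 100 to 200 bp. PolII_S5P had 0.764 ± 0.260 at 0 to 50 bp, 0.417 ± 0.0415 at 100 to 200 bp and 1.44 ± 0.0902 at 500 to 700 bp. These profiles by distance were added after the positions had been seen.

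MBD3 summits also lay nearer the summit of acetylation than even placement gives. For each pair, the distance between the MBD3 and H3K27ac summits was ranked among the distances of all bases of the same site, so that 50 is even placement and lower is nearer. The mean distance rank was 39.5, 39.8 and 40.2 in animals 5, 7 and 9. This was 10.2 ± 0.330 below even placement (SD, n = 3; exact sign-flip p = 0.25, lower in 3 of 3 animals). The distance rank was below 50 in every class and every animal, by 12.7 ± 0.927 in sites of 1000 to 2000 bp, 12.8 ± 0.369 in sites of 2000 to 5000 bp and 3.25 ± 1.79 in sites under 500 bp. With outside summits counted at the nearest edge, the narrowest class turned to 14.3 above even placement, and the value over all widths was -3.54 ± 0.929.

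In bp, the median distance between the summits was 250, 255 and 269 in sites of 1000 to 2000 bp, where even placement gives 378 ± 2.52 (SD, n = 3). MBD3 summits lay on the same side of the site's centre as the H3K27ac summit in 59.0%, 58.6% and 58.8% of pairs, against 50% for even placement. That excess of 8.83 ± 0.183 points used the side alone and no distance, and it was present in 3 of 3 animals (exact sign-flip p = 0.25).

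Of the summits in one site, that of MBD3 was nearer the centre than that of H3K27ac in the 1000 to 2000 bp class only, among the 5 classes. The difference in scaled distance from the centre was -0.00849, -0.0102 and -0.0225 in animals 5, 7 and 9. In the other classes the MBD3 summit was farther out in all animals, by 0.0581 ± 0.0104 in sites of 2000 to 5000 bp and by 0.199 ± 0.00497 in sites under 500 bp (SD, n = 3). The small difference in the 1000 to 2000 bp class turned to 0.0504 when outside summits were counted at the nearest edge. That of 500 to 1000 bp sites, 0.0284 ± 0.0184, turned negative under 3 alternatives. The H3K27ac summit is part of the list that defines the site, so its own centring is not independent of the site's bounds.

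MBD3 summits were not most frequent at the H3K27ac summit itself. In sites of at least 1000 bp, MBD3 summits were most frequent relative to even placement 250 to 300 bp away, at 1.61, 1.70 and 1.89 times in animals 5, 7 and 9. Within 0 to 50 bp of the H3K27ac summit the ratio was 1.52 in animal 5 and 1.48 in animal 7 but 1.06 in animal 9. All animals thus had their highest ratio some 250 bp or more from the acetylation summit, while the excess at the summit itself was seen in animals 5 and 7 and was near even placement in animal 9. Beyond 500 bp MBD3 was below even placement, with 0.739 ± 0.0430 at 500 to 700 bp and 0.479 ± 0.00819 at 700 to 1000 bp (SD, n = 3).

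PolII_S5P and H3K4me1 summits on sites of at least 1000 bp had other profiles. PolII_S5P was most frequent 100 to 150 bp from the H3K27ac summit, at 3.25, 2.81 and 2.67 times even placement in animals 5, 7 and 9. Like MBD3 it was lower at 0 to 50 bp, with 1.35 ± 0.132 (SD, n = 3). H3K4me1, a histone mark like H3K27ac, was most frequent at the H3K27ac summit itself, with 2.63, 2.61 and 2.37 times even placement at 0 to 50 bp. At the 250 to 300 bp where MBD3 was highest, H3K4me1 was depleted, at 0.604 ± 0.111. Each profile used the sites of its own antibody. Over these, the 50 bp bin with the highest ratio lay farther out for PolII_S5P than for H3K4me1. It was farthest for MBD3, in each of the 3 animals. The order did not hold in animal 5 for MBD3 summits on sites with PolII_S5P, whose highest bin was 0 to 50 bp, at 1.91. In animal 7 the highest bin of such summits was 250 to 300 bp, at 1.692 against 1.687 at 0 to 50 bp. In animal 9 it was 200 to 250 bp, at 1.88. The order over each antibody's own sites holds for the highest bin and not for the typical distance. H3K4me1 also had many summits far away, with 1.04 ± 0.00888 times even placement at 700 to 1000 bp. The median distance of H3K4me1 to the H3K27ac summit was 333 ± 5.57 bp in sites of 1000 to 2000 bp, against 258 ± 9.85 bp for MBD3. In sites of 2000 to 5000 bp it was 738 bp, with 725 bp in the lowest animal, against 429 ± 3.21 bp for MBD3.

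**Figure D3:**
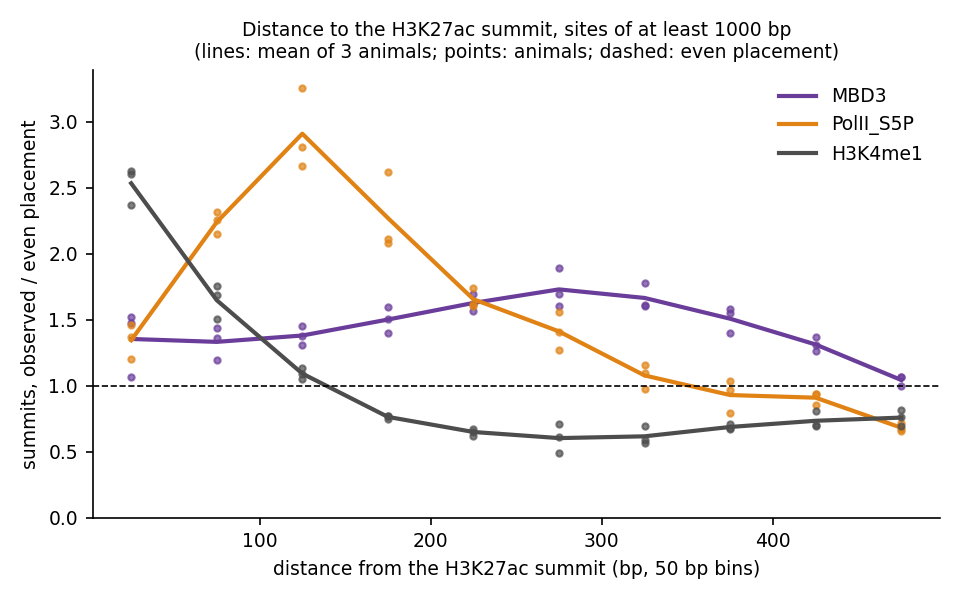
Number of summits divided by that of even placement (vertical axis) against the distance from the H3K27ac summit in bp (horizontal axis, bins of 50 bp), for sites of at least 1000 bp. Lines are means of 3 animals for MBD3, PolII_S5P and H3K4me1, points are animals, and the dashed line is even placement. H3K4me1 is highest at 0 to 50 bp, PolII_S5P at 100 to 150 bp and MBD3 at 250 to 300 bp.

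The antibodies were also compared within sites that carried both. The 1909, 7307 and 3609 sites with MBD3 and PolII_S5P in animals 5, 7 and 9 had a median MBD3 distance to the H3K27ac summit of 293, 279 and 283 bp, and a median PolII_S5P distance of 184, 196 and 205 bp. The distance rank of PolII_S5P was 5.37 ± 1.74 lower than that of MBD3 (SD, n = 3; exact sign-flip p = 0.25, lower in 3 of 3 animals). PolII_S5P was also nearer the site's centre, by 0.0215 ± 0.0215, a difference as large as its spread that turned to 0.00480 when the midpoint of the MBD3 peak was used. Sites under 500 bp went the other way in 3 of 3 animals on both measures. There the distance rank of PolII_S5P was higher by 5.69 ± 3.50 and its scaled distance from the centre by 0.0844 ± 0.0132, over 51 to 266 sites per animal. In sites of 500 to 1000 bp neither measure had the same sign in all animals. The median distance from an MBD3 summit to the nearest PolII_S5P summit of the same site was 177, 147 and 151 bp.

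Against H3K4me1 the order was the other way round. In the 7941, 9350 and 3632 sites with both, the MBD3 summit was nearer the site's centre than the H3K4me1 summit, by 0.0645 ± 0.0107 in scaled distance (SD, n = 3; exact sign-flip p = 0.25, in 3 of 3 animals). The difference in sites of 1000 to 2000 bp was 0.109 ± 0.00911, with H3K4me1 at 0.495 ± 0.00555, near even placement. It was reversed in the narrower classes, with -0.0613 ± 0.0105 in sites under 500 bp and -0.0263 ± 0.00927 in sites of 500 to 1000 bp, so that H3K4me1 was nearer the centre there in 3 of 3 animals. MBD3 was also nearer the H3K27ac summit over all widths, with a median distance of 361 ± 9.39 bp against 523 ± 26.7 bp for H3K4me1. The distance rank of H3K4me1 was higher by 5.86 ± 0.935 (exact sign-flip p = 0.25, in 3 of 3 animals). This too turned around in the narrower classes, to -3.82 ± 0.296 in sites under 500 bp and -4.79 ± 1.09 in sites of 500 to 1000 bp. The median distance between an MBD3 summit and the nearest H3K4me1 summit was 427 ± 8.54 bp. Comparisons with H3K4me1, and the rank comparison with PolII_S5P, were added after the positions had been seen.

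The presence of PolII_S5P on the site went with a lower distance rank of MBD3 in the 1000 to 2000 bp class. There the mean distance rank of MBD3 was 33.1 in sites with PolII_S5P and 38.6 in sites without, a difference of -5.54 ± 1.73 (SD, n = 3; exact sign-flip p = 0.25, lower in 3 of 3 animals). The difference in sites of 2000 to 5000 bp was within its spread, at -0.0450 ± 0.412. In sites of at least 5000 bp it had the opposite sign, at 1.87 ± 0.270, and was higher with PolII_S5P in 3 of 3 animals. In the 1000 to 2000 bp class, MBD3 peaks on sites with PolII_S5P were also broader. Their median width was 1073, 1012 and 593 bp in animals 5, 7 and 9, against 650, 544 and 455 bp without PolII_S5P. The part of peak width in the difference in distance rank was not tested. Whether sites with and without PolII_S5P also differed in strength or in gene content was not tested. The PolII_S5P lists held 4351, 19509 and 12526 peaks in animals 5, 7 and 9. They reached 6.83%, 27.2% and 20.2% of all H3K27ac sites of 1000 to 2000 bp. The absence of a PolII_S5P peak may therefore differ in meaning between animals.

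The strength of an MBD3 peak varied with its place. Fold enrichment, as the authors' peak caller gave it, served only as a strength rank within each animal's MBD3 list, from 0 to 100. Over all widths, summits in the central part of the site (scaled distance under 0.5) had mean strength ranks of 58.1, 57.6 and 51.1 in animals 5, 7 and 9, and summits in the outer part 52.2, 52.0 and 48.2. The difference was 4.79 ± 1.69 (SD, n = 3; exact sign-flip p = 0.25, higher in 3 of 3 animals). It was largest in sites of 2000 to 5000 bp, at 8.68 ± 2.26, among the 5 classes. In sites under 500 bp and of 500 to 1000 bp it had the other sign in all animals, with -3.30 ± 0.0469 and -2.46 ± 0.331.

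The strongest MBD3 peaks were more central than the weakest in sites of 1000 to 2000 bp. Each MBD3 list was split by strength rank into 4 groups of equal size. Of the strongest group, 57.7%, 57.4% and 56.9% of inside summits lay in the middle segment of these sites, against 44.2%, 43.6% and 48.4% of the weakest group. The difference was 11.9 ± 2.99 points (SD, n = 3; exact sign-flip p = 0.25, higher in 3 of 3 animals). The next strongest group had 55.2%, 57.6% and 52.1%, so that in animal 7 it was slightly above the strongest. The difference between the strongest and weakest groups was 15.3 ± 2.90 points in sites of 2000 to 5000 bp and 2.86 ± 2.68 points in sites of at least 5000 bp. In distance rank these groups did not differ beyond the spread in sites of 1000 to 2000 bp, at 0.222 ± 6.05. The strongest were higher there in 1 of 3 animals. The rank difference was -14.0 ± 7.61 in sites of 2000 to 5000 bp, from -18.4 to -5.17 over the animals. In sites of at least 5000 bp it was -11.4 ± 9.94, from -18.0 to 0.0433, with the strongest again higher in 1 of 3 animals. The strongest peaks were also broader, with a median of 794 ± 222 bp against 394 ± 33.8 bp in the 1000 to 2000 bp class. The part of peak width in this difference was not tested. The groups were formed after the positions had been seen.

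A maximum away from the H3K27ac summit was highest among these strong peaks. Within sites of at least 1000 bp, the strongest group had 2.11, 2.13 and 2.62 times even placement 300 to 350 bp from the H3K27ac summit. This was its highest bin in animals 5 and 9, while in animal 7 it was highest at 250 to 300 bp, with 2.29. At 0 to 50 bp the same peaks had 1.25 and 1.28 times even placement in animals 5 and 7 and 0.518 in animal 9. The weakest group showed no maximum at a distance in animals 5 and 7, whose ratios fell from 1.59 and 1.37 at 0 to 50 bp to 0.906 and 0.984 at 300 to 350 bp. In animal 9 the weakest group was highest at 150 to 200 bp, with 1.85. The middle pair of groups differed between animals as well. The weaker of the pair was highest at 0 to 50 bp in animals 5 and 7, with 1.75 and 1.72, and at 150 to 200 bp in animal 9. The stronger was highest at 0 to 50 bp in animal 5, at 200 to 250 bp in animal 7 and at 300 to 350 bp in animal 9. A maximum at a distance was thus common to all animals in the strongest group only, of the 4 groups.

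**Figure D4:**
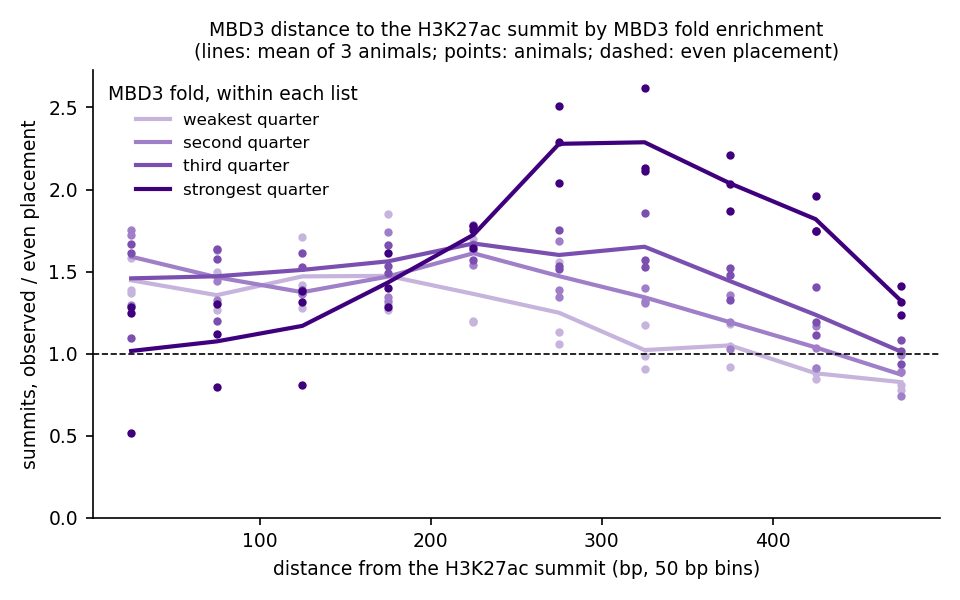
MBD3 summits divided by even placement (vertical axis) against the distance from the H3K27ac summit in bp (horizontal axis, bins of 50 bp), in sites of at least 1000 bp, for 4 equal groups of each MBD3 list by fold enrichment. Lines are means of 3 animals, points are animals, and the dashed line is even placement. The strongest group rises to 2.29 at 300 to 350 bp, where the weakest is at 1.02.

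Spacing was measured between neighbouring MBD3 summits within one site. No even placement was calculated for it, so a spread beyond that of separately called peaks was not tested. The median distance between neighbouring MBD3 summits in one H3K27ac peak was 1342, 1313 and 1191 bp in animals 5, 7 and 9. It was 803 ± 32.1 bp in sites of 1000 to 2000 bp and 1773 ± 22.0 bp in sites of at least 5000 bp (SD, n = 3). The H3K27ac summit fell between the neighbours in 49.1%, 50.2% and 54.2% of cases, against 37.2% ± 0.0788 for an evenly placed H3K27ac summit. Within sites of 2000 to 5000 bp the shares were 56.3%, 58.0% and 59.6%, against 40.7% ± 1.07. Neighbouring MBD3 summits enclosed the acetylation summit more often than even placement gives in every animal. The H3K27ac summit was itself nearer the site's centre than even placement, which this reference does not take into account. Over the pairs with an inside MBD3 summit, its mean scaled distance from the centre was 0.378 ± 0.00920 (SD, n = 3). In sites of 2000 to 5000 bp it was 0.345 ± 0.00403. How much of the excess that centring gives was not tested.

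A lone MBD3 peak was more often central than one with companions. In sites of 2000 to 5000 bp, 57.0%, 55.7% and 56.1% of summits that were alone in their site lay in the middle segment. Among sites with 2 or more summits, the strongest lay there in 38.8%, 38.6% and 36.2% of cases and the weaker ones in 27.4%, 27.5% and 33.5%. The weaker summits were also farther from the H3K27ac summit, with a median of 923 ± 195 bp against 456 ± 66.2 bp for the strongest and 342 ± 9.58 bp for lone ones (SD, n = 3). Summits of one site cannot coincide, so that companions are spread out by construction, and this split was made after the positions had been seen.

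The H3K27ac summit itself was not a fixed point. Between 2 animals, MBD3 summits at overlapping MBD3 peaks were a median of 39 to 40 bp apart, and H3K27ac summits at overlapping H3K27ac peaks 92 to 112 bp. Of the MBD3 pairs, 76.2% ± 0.628 were within 100 bp, against 49.8% ± 1.96 of the H3K27ac pairs (SD over the 3 pairs of animals). MBD3 peaks were narrower, with a median width over the whole list of 429 ± 36.3 bp against 622 ± 48.0 bp for H3K27ac. A distance between the MBD3 and H3K27ac summits carries the disagreement of both summits. Over all overlapping peaks of the lists, that of the H3K27ac summit was the larger. It was smaller in the sites of 1000 to 2000 bp and of 2000 to 5000 bp compared between animals. There the H3K27ac summits were a median of 65.2 ± 0.764 and 67.1 ± 1.88 bp apart (SD, n = 3).

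In 24.1% ± 0.920 of the compared sites of 1000 to 2000 bp, the H3K27ac summit of another animal lay 300 bp or more from that of the first (SD, n = 3). There the highest acetylation was called at separate places in the compared animals. Of the MBD3 summits in them, between 63.6% and 66.9% lay between both H3K27ac summits in the 6 ordered pairs of animals, where even placement gives 39.7% to 40.8%. The share was 45.4% to 46.8% in sites of 2000 to 5000 bp, against 26.0% to 27.2%. The excess was 24.3 ± 1.25 and 19.1 ± 0.255 percentage points. The observed share was above even placement in all 6 ordered pairs and both classes, although the pairs reuse the same 3 animals. Even placement takes no account of the preference of MBD3 for the middle of the site, and how much of the excess that preference gives was not tested. This comparison was added after the positions had been seen.

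**Figure D5:**
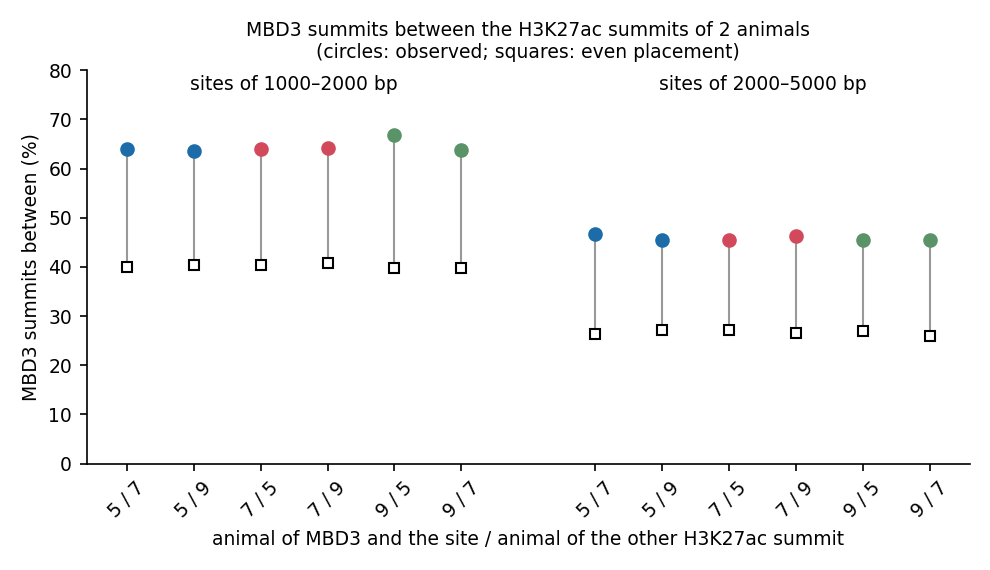
Percent of MBD3 summits that lay between the H3K27ac summits of 2 animals at least 300 bp apart (circles) and the percent for even placement in the same sites (open squares), for each ordered pair of animals on the horizontal axis and 2 width classes. The circles lie between 63.6% and 66.9% in sites of 1000 to 2000 bp and between 45.4% and 46.8% in sites of 2000 to 5000 bp, above their squares in all pairs.

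Single sites show the range of positions. They were taken by rank of MBD3 fold enrichment and by number of MBD3 peaks from the 16782 merged regions with H3K27ac and MBD3 in all 3 animals, 14 in all, and are given on mm39. At chr16:25133056-25133622, a narrow site, the MBD3 summit lay outside the H3K27ac peak in all 3 animals, 339, 430 and 403 bp from the H3K27ac summit. At chr1:176760769-176761260, the other site named from the narrowest class, it lay inside in all 3, at 70.0%, 75.3% and 78.0% of the way from start to end. The narrow class held strong MBD3 peaks both beside and within the acetylated interval.

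At chr6:108298074-108298966 the MBD3 summit was at 80.2%, 89.5% and 83.3% of the site, and 313, 295 and 328 bp from the H3K27ac summit in animals 5, 7 and 9. At chr11:95366226-95367258, of the same class, it lay beyond the end of the acetylated peak in all animals, 371, 479 and 325 bp from its summit. Both sites placed MBD3 to one side of the acetylation summit in every animal. At chr15:10839258-10841914 the summits were 356, 334 and 349 bp apart. At chr1:24016475-24017650 they were 525, 522 and 460 bp apart, with the MBD3 summit inside the site in animal 7 only.

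At chr3:79342272-79345345, a broader site, the MBD3 summit stayed close to one place, at 79343708, 79343713 and 79343690, and lay at 52.3%, 41.4% and 39.7% of the site. The H3K27ac summit moved between animals, from 79343922 in animal 5 to 79344679 in animal 7 and 79344378 in animal 9, so that the distance between the summits was 214, 966 and 688 bp. This site shows a stable MBD3 summit beside an acetylation summit that changed place. At chr3:143298178-143301207, the other site of the class, the distances were 524, 533 and 208 bp, and it was again the H3K27ac summit of 1 animal, animal 9, that lay elsewhere.

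The 4 regions with the most MBD3 peaks were picked by that number, so their counts do not describe broad sites in general. The regions of the widest class picked by MBD3 rank held fewer. In animals 5, 7 and 9 the one on chromosome 9 held 3, 4 and 3 MBD3 peaks, and that on chromosome 16 held 4, 4 and 2. The merged region chr3:88106943-88139523 held 16, 14 and 9 MBD3 peaks in animals 5, 7 and 9, and chr6:86027226-86062355 held 12, 11 and 9. A region on chromosome 18 held 11, 10 and 9. At chr2:165712999-165731609 the strongest MBD3 summit was at 165725890, 165725907 and 165725898, at 68.8%, 69.8% and 69.4% of an acetylated peak about 18 kb long. Animal 9, with the shortest MBD3 list, had the fewest peaks in each of these 4 regions. The H3K27ac summit of the last region was at 165717185 in animal 5 and at 165726880 and 165726930 in the others, 8705, 973 and 1032 bp from MBD3. At chr9:36848677-36865486 the MBD3 summit was at 36856185, 36856217 and 36856214, while that of H3K27ac was at 36854042 in animal 5 and at 36856973 and 36856919 in the others. At chr16:96430922-96439537 both were stable, 1392, 1371 and 1452 bp apart. At chr3:88106943-88139523 it was instead the strongest MBD3 summit that moved, lying at 88129526, 88133607 and 88129524. The H3K27ac summit there was at 88122407, 88122430 and 88122453. In the region on chromosome 18 the strongest MBD3 summit was at 60757360, 60752822 and 60758537, and that of H3K27ac at 60756877, 60757112 and 60757072. At chr6:86027226-86062355 the summits were 549, 600 and 561 bp apart. No gene is named for these sites, because no annotation of this build was used here.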

How the data were processed

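MBD3, H3K27ac, PolII_S5P and H3K4me1 peak lists of 3 animals were used, 1 list per library. The tools named, per the submitters' processing notes, are MACS2 2.2.7.1, Picard 2.18.29, SAMtools 1.16.1, Trim Galore 0.6.7 and bcl2fastq 2.20, with the builds mm39 and hg38. Contig names are those of mm39. For the aligner and the control of peak calling, the record here is: not given in the sources used here. For each peak the authors deposited a fold enrichment (a ratio of pileup to local background), a q-value as −log10, and an offset (another kind of number) of the summit from the start in bp. The lowest −log10 q-value was between 1.30 and 1.32 in the deposited lists used. Read depth is unknown, so list lengths may reflect depth or antibody. Unplaced sequences are named differently in the MBD3 lists than in the others, and a difference in processing cannot be told apart from the antibody.

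Only chromosomes 1 to 19 were used. The place of a summit is its position from start to end of the H3K27ac peak, and even placement was calculated in closed form, with nothing drawn at random. An MBD3 peak overlapping several H3K27ac peaks gave a pair with each. Per the labels, a shared number means a shared animal, so MBD3 was paired with H3K27ac of its own animal. Animals are the replicates, and peaks are not. Tests were two-sided exact permutation tests, and 27 of them compare subsets of sites or peaks chosen after seeing the data. Sites were named by rule: in each width class the 2 regions with the best mean MBD3 rank, plus the 4 with the most MBD3 peaks, 14 in all. The code was tested on simulated lists. Alternatives changed the q-value threshold, overlap rule, outside summits, peaks per site, summit or midpoint, merging, list length, pairing, animals and chromosomes. The sites, measures and classes were chosen with earlier results of these data known. TDG and input libraries were not analysed here, and no sequence is shown because the genome tables used here are on another build. Software was matplotlib 3.10.9, pandas 2.3.3, numpy 2.4.6 and scipy 1.17.1 under Python 3.11.15.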

Additional observations from a re-analysis of the deposited data

Results flagged for a closer look

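Each result here is one where MBD3 lay on one side of its reference value in all 3 animals and another antibody on the other side in all 3, in the same class of H3K27ac sites. They are 12 of 72 comparisons of MBD3 with PolII_S5P or H3K4me1, picked by these opposite signs, so their p-values are those of chosen comparisons. The difference was tested by a two-sided exact sign-flip permutation test paired by animal, and every one of the 12 gave p = 0.25, the smallest that 3 animals allow. The measures were compared after the values had been seen, and each antibody was measured on its own sites, not on sites shared with MBD3.

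In sites under 500 bp, MBD3 summits were farther from the centre than even placement by 0.0182 and H3K4me1 summits nearer by a value of -0.0772, a difference of 0.0954 ± 0.00815 (SD, n = 3). The shares in the middle of 3 equal segments differed by -11.8 ± 1.31 percentage points. The direction of MBD3 alone in this class depended on the overlap rule. In sites of 1000 to 2000 bp, the middle segment share of MBD3 exceeded that of H3K4me1 by 20.5 ± 1.61 points.

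In the same class, MBD3 was nearer the centre than the H3K27ac summit of its sites. PolII_S5P and H3K4me1 were farther from the centre than the H3K27ac summit of theirs. The difference in scaled distance was -0.0341 ± 0.00754 from PolII_S5P and -0.0585 ± 0.00819 from H3K4me1. In sites of this class that carried both, PolII_S5P was instead nearer the centre than MBD3 in 3 of 3 animals. There PolII_S5P minus MBD3 was -0.0169 ± 0.0127 (SD, n = 3). The sign of MBD3 against H3K27ac in this class also turned when outside summits were counted at the nearest edge.

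The remaining results concern strength by place, as the mean rank of fold enrichment of central minus outer summits. Over all widths MBD3 had 4.79 and PolII_S5P -4.24, a difference of 9.03 ± 3.94 (SD, n = 3). The difference from PolII_S5P was 12.4 ± 3.74 in sites of 1000 to 2000 bp, 10.6 ± 4.00 in sites of 2000 to 5000 bp and 6.71 ± 3.89 in sites of at least 5000 bp. It was -10.1 ± 3.46 in sites under 500 bp, where MBD3 had -3.30 and PolII_S5P 6.75. The difference from H3K4me1 was 7.49 ± 2.08 in sites of 1000 to 2000 bp and -8.45 ± 2.64 in sites under 500 bp.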

How the results depend on the processing

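Of 104 values of 8 tested results under the alternatives, 100 kept their direction. The 4 that reversed were the distance from the centre (0.0720) and the middle segment share (-0.927) with outside summits counted at the nearest edge, MBD3 against H3K27ac centring with MBD3 peaks wholly inside the site (-0.0249), and PolII_S5P against MBD3 centring with MBD3 midpoints (0.00480). The cause was not tested, except that a summit placed at an edge is far from the centre, and a peak wholly inside cannot reach an edge, by construction.

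Of 442 values by width class or for results added later, 426 kept their direction. In sites under 500 bp, the distance from the centre became -0.0201, -0.241 and -0.00779 and the middle segment excess 2.15, 33.9 and 1.49 with 0.5 of the MBD3 peak covered, with it wholly inside and with midpoints. In that class the distance rank became 14.3 with outside summits at the edge, and with peaks wholly inside the centring against H3K27ac became -0.0589 and strength by place 19.3. In sites of 500 to 1000 bp, outside summits at the edge gave 0.174 from the centre and -10.3 in the middle segment, peaks wholly inside gave -0.136 for centring against H3K27ac and 7.13 for strength, and that centring was -0.000982 with midpoints and -0.0134 with H3K27ac peaks within 500 bp merged. In sites of 1000 to 2000 bp it was 0.0504 with outside summits at the edge.

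The share of summits inside the site moved from 73.4% to 93.2% with 0.5 of the MBD3 peak covered, to 100% with it wholly inside, and to 84.5% with merging. MBD3 peaks per occupied site moved to 1.13 at the stricter q (−log10 q of 5 or more), 1.17 with 0.5 covered, 1.21 wholly inside, 1.23 merged and 1.12 with lists of equal length. Spacing moved from 1282 bp to 1475 bp at the stricter q, 1411 bp merged and 1457 bp with equal lists. MBD3 summit repeatability moved from 39.3 bp to 33.3 bp at the stricter q, 66.0 bp with midpoints and 35.0 bp with equal lists, and ranged from 39 to 40 bp without each replicate in turn.

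With no replicate block, pairing MBD3 with H3K27ac of the other 2 animals, the distance from the centre was -0.0820, the middle segment excess 10.99 and the distance rank -10.4, and no tested result changed direction.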
